A study of Mus musculus with 12 samples.

Results

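The Cyp4a genes encode cytochrome P450 enzymes that add a hydroxyl group to the last carbon of fatty acids. The 6 members described here are Cyp4a10, Cyp4a12a, Cyp4a12b, Cyp4a14, Cyp4a31 and Cyp4a32, taken by symbol from a table of 24421 genes, and all 6 passed the filter on low counts that left 13880 genes for testing. They were selected on their measured response to diet, because Cyp4a31 and Cyp4a32 had been seen higher under the acyclic retinoid ACR in both strains. The diet comparison therefore chose them, and their diet values are given as a description without a test. The comparisons between strains, and the difference of the diet effects between strains, were tested. That difference is built from the same diet values, so its test is not free of the choice.

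RNA sequencing was done on liver outside tumours, taken at 4 months of age from males of 2 mouse strains, LiK and LiKM. From 5 weeks of age the mice of each strain received a normal diet or a diet with 0.06% ACR, which gave 4 groups of 3 mice: LiK normal diet, LiK ACR, LiKM normal diet and LiKM ACR. The labels name the strains without spelling out their alleles. From what is known of the study, LiKM mice are meant to lack Mdm2 in hepatocytes.

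Omega hydroxylation is a side route of fatty acid breakdown in liver and kidney. Cyp4a enzymes sit in the endoplasmic reticulum, take electrons from Por, and make omega-hydroxy acids that alcohol and aldehyde dehydrogenases turn into dicarboxylic acids, which peroxisomes shorten by beta oxidation. Many Cyp4a genes are classical targets of PPAR alpha, a nuclear receptor that senses fatty acids and binds DNA with the retinoid X receptor RXR, while the mouse Cyp4a12 genes are known for higher levels in males.

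Libraries held 10124813 to 18647156 counts. Levels are given as CPM, the counts scaled to library size with TMM factors, and fold changes as log2 values. The Mdm2 count covers all exons together and so cannot check a deletion of part of them. It ran from 21.6 to 25.8 CPM in the 6 LiK libraries and from 29.0 to 67.2 CPM in the 6 libraries labelled LiKM. All 8 hepatocyte markers were detected, with summed levels of 126000 to 175000 CPM in the LiK normal diet group, 157000 to 168000 in LiK ACR, 96500 to 108000 in LiKM normal diet and 135000 to 170000 in LiKM ACR. Of these, 2 fell in LiKM on the normal diet by edgeR, where 8.61% of all genes fell, and 0 on ACR, where 4.24% did. The 6 bile duct markers all rose in LiKM on both diets, where 13.2% (normal diet) and 5.55% (ACR) of all genes rose. They summed to 34.2 to 182 CPM over the LiK libraries and 323 to 1000 CPM over the LiKM libraries. Kidney, the other main site of Cyp4a expression, left almost no trace: its 6 markers summed to at most 0.132 CPM, and Kap, Slc12a1 and Aqp2 had no count in any library.

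The 6 genes lie close together on mouse chromosome 4 within 323 kb (GRCm38, chr4:115299046-115621602), with Cyp4a30-ps and Cyp4a30b among them. In genome order they are Cyp4a12a (chr4:115299046-115332815, plus strand), Cyp4a12b (chr4:115411624-115439034, plus strand), Cyp4a14 (chr4:115486200-115496142, minus strand), Cyp4a10 (chr4:115518264-115533649, plus strand), Cyp4a31 (chr4:115563649-115579015, plus strand) and Cyp4a32 (chr4:115600969-115621602, plus strand). The GENCODE M21 annotation holds 11 Cyp4a genes and pseudogenes in the neighbourhood, 8 of them protein coding, and the coding pair that are not members, Cyp4a29 and Cyp4a30b, had no count in any library. Each member's main transcript has 12 exons, or 13 in Cyp4a10, and a coding sequence of 1524 to 1530 bases.

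Their coding sequences form 2 sets of near-identical copies and 1 gene that stands alone. Cyp4a10 and Cyp4a32 were identical at 97.2% of coding positions, Cyp4a10 and Cyp4a31 at 96.6%, and Cyp4a31 and Cyp4a32 at 96.0%. Cyp4a12a and Cyp4a12b were identical at 98.5%. Any 2 members from different sets, and Cyp4a14 with each of the others, shared 74.8% to 80.0%. Across the set of 3, 77 of 1530 coding positions differ, and Cyp4a12a and Cyp4a12b differ at 23 of 1527.

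The stretches shown here hold the most differences between copies within the coding sequence, the only part of the transcripts that was searched for them. The first 3 lines give coding bases 200 to 259 of Cyp4a10, Cyp4a31 and Cyp4a32, counted from 1 at the first base of the start codon, the 60-base window with the most differences (9 positions). The last lines give coding bases 624 to 683 of Cyp4a12a and Cyp4a12b, with 4 differing positions. All are exonic, written 5′ to 3′ from the GENCODE M21 transcripts, with capitals at the positions where the copies differ.
Cyp4a10: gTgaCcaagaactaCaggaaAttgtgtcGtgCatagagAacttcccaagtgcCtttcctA
Cyp4a31: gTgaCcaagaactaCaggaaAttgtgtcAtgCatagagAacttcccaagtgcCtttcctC
Cyp4a32: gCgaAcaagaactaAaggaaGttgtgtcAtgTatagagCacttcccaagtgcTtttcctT
Cyp4a12a: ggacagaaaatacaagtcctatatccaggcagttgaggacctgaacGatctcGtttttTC
Cyp4a12b: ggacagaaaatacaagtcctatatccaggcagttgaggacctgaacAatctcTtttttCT
In the first window most capitals set Cyp4a32 apart from the other members of its set, so reads from this stretch separate Cyp4a32 better than they separate Cyp4a10 from Cyp4a31.

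At the opposite extreme, coding bases 1279 to 1426 were the same in Cyp4a10, Cyp4a31 and Cyp4a32. This run of 148 bases is shown because a read that falls inside it cannot be given to 1 copy. Its capitals mark the 30 bases of the haem-binding signature, the stretch around the cysteine that holds the haem iron in every P450.
Cyp4a10, Cyp4a31 and Cyp4a32: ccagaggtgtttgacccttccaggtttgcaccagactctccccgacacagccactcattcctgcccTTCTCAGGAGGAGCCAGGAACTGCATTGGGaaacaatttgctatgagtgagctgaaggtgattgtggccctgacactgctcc
The signature has the following letters in Cyp4a12a and Cyp4a12b, which are the same there, and in Cyp4a14.
Cyp4a12a and Cyp4a12b: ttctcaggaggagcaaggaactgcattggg
Cyp4a14: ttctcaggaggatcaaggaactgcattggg
Cyp4a12a and Cyp4a12b share their first 342 coding bases, the longest run of identity between that pair.

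Of all 50-base stretches of the main transcript, 46.8% in Cyp4a32, 30.5% in Cyp4a10 and 21.8% in Cyp4a31 also occur in a transcript of another gene. The share was 48.9% in Cyp4a12a, 49.4% in Cyp4a12b and 0.2% in Cyp4a14. With 100-base stretches it was 20.1%, 12.7%, 8.2%, 35.8%, 36.2% and 0% in the same order. In Cyp4a10, Cyp4a32 and the Cyp4a12 pair the partner genes all came from the same set, and Cyp4a31 also shares 50-base stretches with 308 genes outside the family. The sources used here give neither the read length nor the options for shared reads.

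**Figure D1:**
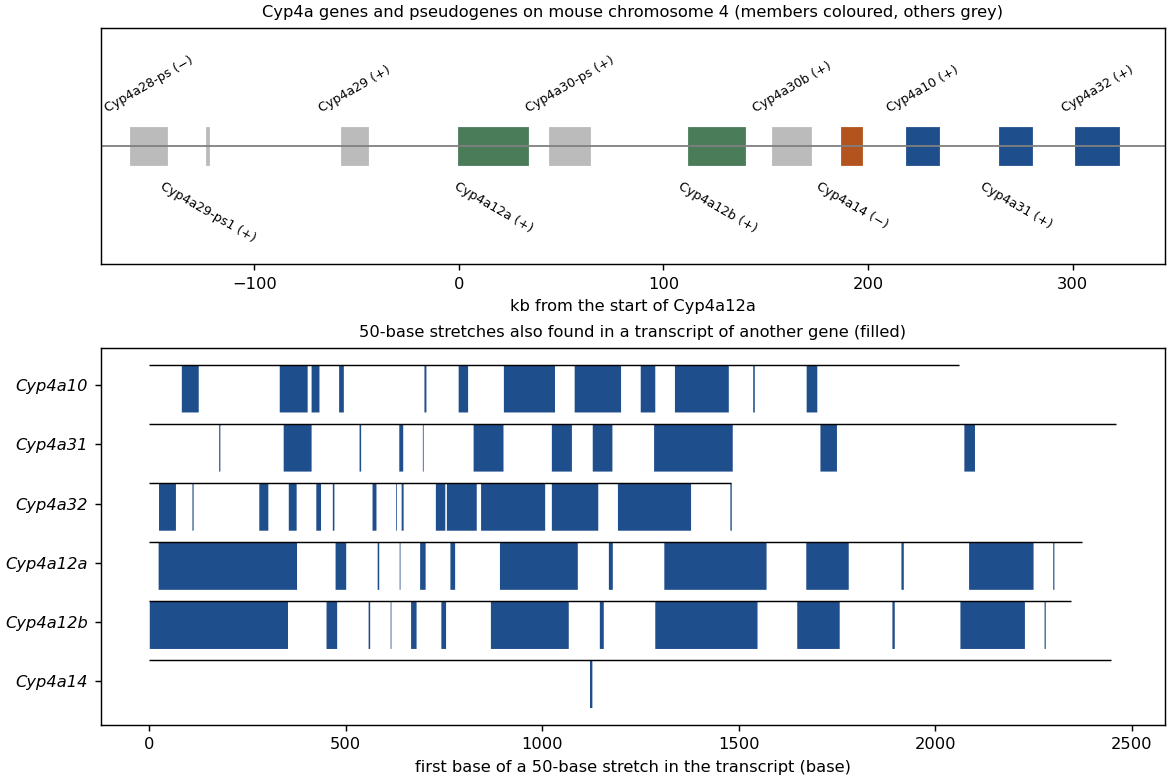
Top: positions of the Cyp4a genes and pseudogenes in kb from the start of Cyp4a12a, with the strand in brackets, members coloured by set and others grey. Bottom: position along each main transcript, in bases, of 50-base stretches that also occur in a transcript of another gene (filled). Cyp4a14 is almost free of them (0.2%), and in the Cyp4a12 pair they cover 48.9% and 49.4%.

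The deposited counts carry the trace of this likeness. Cyp4a14 had whole-number counts in all 12 libraries. Cyp4a31 and Cyp4a32 had fractional counts in 12 of 12 libraries, Cyp4a10 in 11, and Cyp4a12a and Cyp4a12b in 10 each. The sum of Cyp4a12a and Cyp4a12b was a whole number in 12 of 12 libraries, and the sum of Cyp4a10, Cyp4a31 and Cyp4a32 lay within 0.025 of a whole number in 10 of 12 and within 0.06 in all. The fractions of a set thus added up to nearly whole reads, so the sums do not depend on how reads shared within a set were divided, whereas each copy's own level does and is uncertain to that extent.

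Within the set of 3, Cyp4a31 took the smallest share of the summed counts in 12 of 12 libraries and the balance between Cyp4a10 and Cyp4a32 varied between mice. Cyp4a10 took 32.7%, 50% and 46.4% of the set's counts in the LiK normal diet group, against 52.7%, 55% and 68% in LiK ACR. Among LiKM mice its share was 72.3%, 38.4% and 41.5% without ACR, against 68.3%, 62.7% and 48.2% with it. All LiK mice on ACR were above all LiK mice on the normal diet, while the LiKM groups overlapped, with LiKM normal diet mouse 1 the highest of all 12. Cyp4a32 had shares of 41.7% to 57.1% in the LiK normal diet group, against 22.5% to 36.1% in LiK ACR, and Cyp4a31 stayed between 8.38% and 19.2% throughout. Cyp4a12a took 56.2% to 71.6% of its pair's counts in all libraries.

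**Figure D2:**
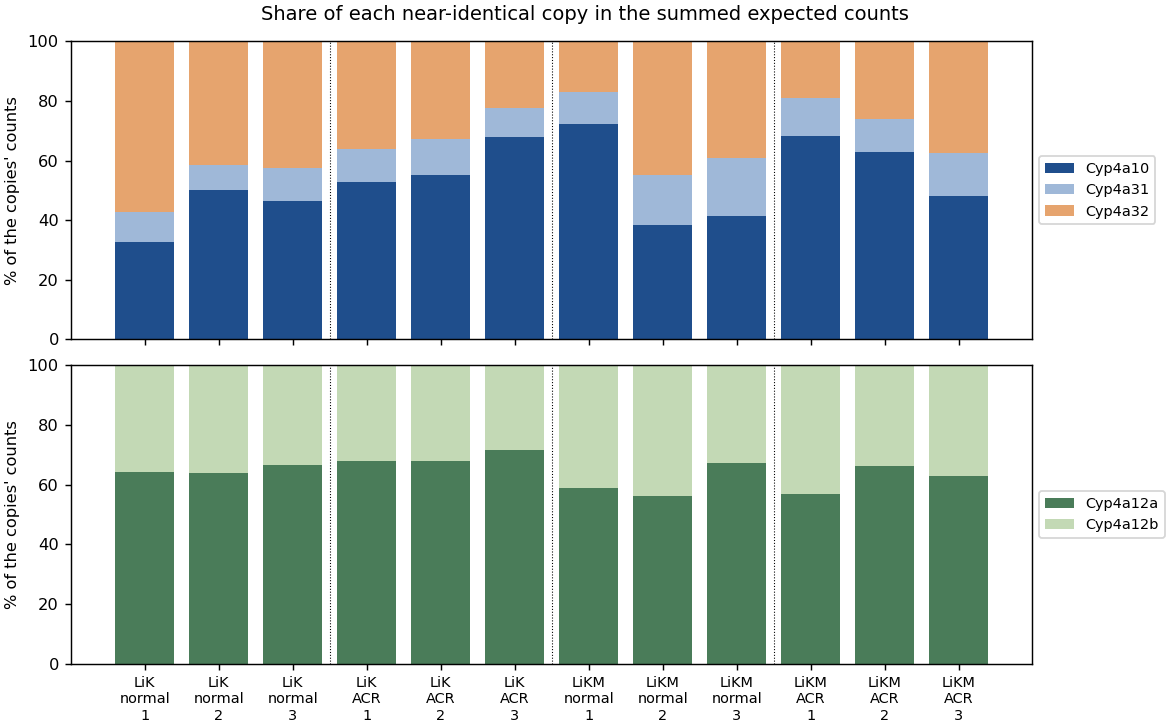
Share of each copy in the summed expected counts of its set, in percent, for each of the 12 libraries in group order (dotted lines separate groups). Upper panel: Cyp4a10, Cyp4a31 and Cyp4a32, with Cyp4a10 between 32.7% and 72.3%. Lower panel: Cyp4a12a and Cyp4a12b, with Cyp4a12a between 56.2% and 71.6%.

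Levels of different members can be compared per kilobase of exon (CPM per kb), with the reservation that the annotated Cyp4a32 model holds hardly any sequence outside the coding part (1536 bases of exon), so that its value is not on the same footing as the others. In LiK mice on the normal diet the order was Cyp4a12a (88.3 ± 47.6 CPM per kb, mean ± SD, n = 3 as in all groups), Cyp4a12b (48.9 ± 28.2), Cyp4a32 (14.2 ± 1.37), Cyp4a10 (9.68 ± 2.80), Cyp4a31 (1.86 ± 0.391) and Cyp4a14 (0.836 ± 0.859). The ranges of Cyp4a12a and Cyp4a12b overlapped, as did those of Cyp4a31 and Cyp4a14, and the other neighbours in this order did not overlap. In LiKM mice on the normal diet Cyp4a12a (58.5 ± 10.8) and Cyp4a12b (37.9 ± 4.53) again led and Cyp4a14 (1.14 ± 0.831) again came last. There the ranges of Cyp4a10 (14.3 ± 12.5) and Cyp4a32 (9.92 ± 0.727) overlapped and the other neighbours were apart.

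On ACR most neighbours in this order overlapped. In LiK mice on ACR the order was Cyp4a12a (124 ± 57.6 CPM per kb), Cyp4a10 (60.1 ± 41.9), Cyp4a12b (57.7 ± 30), Cyp4a32 (37.7 ± 11.3), Cyp4a14 (19.1 ± 25.8) and Cyp4a31 (8.61 ± 3.57), with overlap between every pair of neighbours. In LiKM mice on ACR it was Cyp4a12a (43.3 ± 22.9), Cyp4a10 (40.6 ± 12.8), Cyp4a12b (29.1 ± 21.2), Cyp4a32 (24.2 ± 4.36), Cyp4a14 (7.81 ± 3.83) and Cyp4a31 (7.14 ± 0.954). There Cyp4a32 lay above Cyp4a14 in every library and the other neighbours overlapped.

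Cyp4a10 is a PPAR alpha target known to be induced by fasting and fibrate drugs. Its level was 13.6, 23.5 and 24.1 CPM in the LiK normal diet group, against 83.9, 68.3 and 228 CPM in LiK ACR. The LiKM mice had 60.5, 14.1 and 15.8 CPM without ACR, against 110, 90.6 and 56.5 CPM with it. In LiK the groups did not overlap and mouse 3 on ACR stood highest; in LiKM mouse 1 on the normal diet was above mouse 3 on ACR. The log2 difference of ACR from the normal diet was 2.63 (SE 0.65, 6.21-fold) in LiK and 1.5 (SE 0.63, 2.83-fold) in LiKM. Without LiK ACR mouse 3 the LiK value was 1.92, and without LiKM normal diet mouse 1 the LiKM value was 2.54.

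Cyp4a31 is a close relative of Cyp4a10 and the least abundant of the set of 3. Its level was 4.23, 3.96 and 5.78 CPM in the LiK normal diet group, against 18, 15.1 and 31.8 CPM in LiK ACR. For LiKM the values were 8.88, 6.06 and 7.24 CPM without ACR, against 20.7, 16.2 and 16.9 CPM with it. The diets did not overlap in either strain, with a log2 difference of 2.22 (SE 0.28, 4.67-fold) in LiK, 1.86 without LiK ACR mouse 3, and 1.27 (SE 0.27, 2.42-fold) in LiKM.

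Cyp4a32, the third of these near copies, had 23.8, 19.6 and 22.2 CPM in the LiK normal diet group, against 57.4, 40.8 and 75.7 CPM in LiK ACR. The LiKM values were 14.3, 16.5 and 14.9 CPM without ACR, against 30.4, 37.6 and 43.7 CPM with it. Again the diets were apart in both strains, by 1.41 (SE 0.20, 2.65-fold) in LiK and 1.29 (SE 0.20, 2.44-fold) in LiKM on the log2 scale.

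The sum of these 3 copies does not depend on how reads shared among them were divided. It was 41.6, 47.1 and 52.1 CPM in the LiK normal diet group, against 159, 124 and 336 CPM in LiK ACR. It came to 83.6, 36.7 and 38 CPM in LiKM mice without ACR, against 161, 144 and 117 CPM with it. Every mouse on ACR lay above every mouse of its strain on the normal diet. The log2 difference was 2.14 (SE 0.40, 4.40-fold) in LiK and 1.41 (SE 0.39, 2.66-fold) in LiKM.

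Cyp4a14, also a PPAR alpha target and the only member counted without shared reads, had the lowest mean on the normal diet and the widest spread in LiK mice on ACR. It had 12, 84 and 11 counts (0.845, 4.75 and 0.921 CPM) in the LiK normal diet group, against 216, 99 and 1854 counts (15.6, 6.59 and 127 CPM) in LiK ACR. LiKM mice had 5.40, 1.27 and 2.23 CPM without ACR, against 22.6, 29.0 and 9.39 CPM with it. The diets were apart in both strains, but within LiK on ACR the highest mouse was 19.3 times the lowest. The log2 difference was 4.43 (SE 1.18, 21.5-fold) in LiK and 2.74 (SE 1.13, 6.66-fold) in LiKM. The LiK value was 2.30 without LiK ACR mouse 3 and 5.81 without LiK normal diet mouse 2, and the LiKM value was 3.57 without LiKM normal diet mouse 1.

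Cyp4a12a is known as the main arachidonic acid omega-hydroxylase of male mice, and Cyp4a12b is its near copy. Cyp4a12a had 132, 346 and 164 CPM in the LiK normal diet group, 419, 337 and 147 CPM in LiK ACR, 146, 114 and 165 CPM in LiKM normal diet and 168, 63.9 and 83.0 CPM in LiKM ACR. The diets overlapped in both strains. LiK normal diet mouse 2 was high beside its group and LiK ACR mouse 3, the mouse with the highest Cyp4a10 and Cyp4a14, was low. Cyp4a12b followed the same mice, with 58.2 to 198 CPM over LiK and 32.7 to 128 CPM over LiKM. The log2 difference of ACR from the normal diet was 0.49 (SE 0.47) in LiK and -0.43 (SE 0.48) in LiKM for Cyp4a12a, 0.24 (SE 0.57) and -0.38 (SE 0.57) for Cyp4a12b, and 0.41 (SE 0.50) and -0.41 (SE 0.50) for their sum. Without LiKM ACR mouse 1 the LiKM value was -1.15 for Cyp4a12b and -1.02 for the sum.

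**Figure D3:**
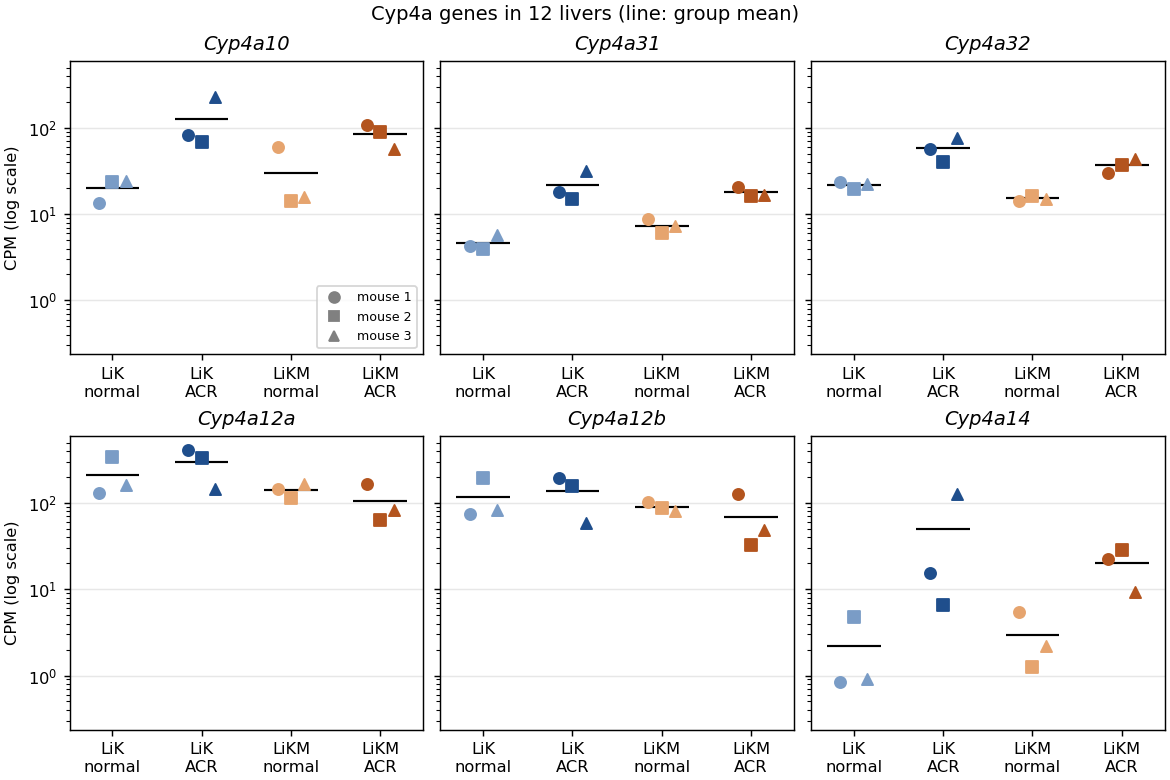
Level of each member in every library, in CPM on a log axis, by group; marker shapes give the mouse number of the titles and lines the group mean. In both strains the ACR points of Cyp4a31, Cyp4a32 and Cyp4a14 lie above the normal diet points, whereas those of Cyp4a12a and Cyp4a12b overlap. LiK ACR mouse 3 is the highest point of Cyp4a14 at 127 CPM.

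In the whole-table fit by edgeR's quasi-likelihood test (adjusted p under 0.05), 2 of 6 members, Cyp4a31 and Cyp4a32, were called higher on ACR in LiK, where 0.195% of all genes were called in either direction and 0.13% as higher. In LiKM 0 of 6 members were called, as were 0% of all genes. DESeq2 called Cyp4a10, Cyp4a14, Cyp4a31 and Cyp4a32 in LiK (2.95% of all genes) and Cyp4a31 and Cyp4a32 in LiKM (0.585% of all genes). With the mouse number as a block within LiKM, edgeR called 3 members in LiK (5.05% of all genes) and 0 in LiKM (0.0648%). These counts describe the choice of the genes, since the diet comparison picked them, and nothing is read from them. The call in LiK went to 0 members when LiK normal diet mouse 1, 2 or 3 or LiK ACR mouse 1 was left out, and with the clock component or the opening letters of the sample identifier (KM or MP) as a covariate. Over all alternatives the log2 difference in LiK was 1.86 to 2.43 for Cyp4a31 and 1.19 to 1.61 for Cyp4a32, and in LiKM edgeR called 1 member, Cyp4a32, when LiK ACR mouse 3 was left out.

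The median log2 difference of the 6 members was 1.81 in LiK and 1.28 in LiKM, beside 0.01 and -0.01 over all genes tested. All 6 were above 0 in LiK and 4 in LiKM. Of 18 genes of the biological clock, edgeR called 0 between diets in either strain, beside 0.195% of all genes in LiK and 0% in LiKM. With so few genes called, a count of 0 between diets, here or in the lists below, is not read as no change. At an unadjusted p under 0.05 there were 9 clock genes in LiK and 6 in LiKM. Between strains edgeR called 0 of the 18 on the normal diet. On ACR 3 of them rose and 4 fell in LiKM, beside 5.55% and 4.24% of all genes. The level of Dbp, a clock output gene, was 4.68 to 5.17 (log2 CPM) in the LiK normal diet group, 7.09 to 7.12 in LiK ACR, 3.10 to 6.21 in LiKM normal diet and 1.76 to 3.96 in LiKM ACR. With the first principal component of 18 clock genes (61.8% of their variance) as a covariate, the diet difference of the sum of Cyp4a10, Cyp4a31 and Cyp4a32 was 2.14 in LiK and 1.41 in LiKM. That of Cyp4a14 was 4.34 and 2.81. For the sum of Cyp4a12a and Cyp4a12b it went from 0.41 to -0.15 in LiK and from -0.41 to 0.06 in LiKM. Leaving out 3 LiKM libraries with deviating clock genes (normal diet mouse 3, ACR mice 2 and 3), the LiKM diet difference was 1.43 for the sum of 3 copies and 0.40 for the sum of the Cyp4a12 pair.

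The strains were compared on each diet to ask whether the family differs between LiKM and LiK livers. On the normal diet 0 of 6 members passed edgeR's test, where 21.8% of all genes did, and 2 had an unadjusted p under 0.05. DESeq2 also called 0 of 6 (25.3% of all genes), as did edgeR with the block within LiKM (30.6%). In bulk tissue, fewer cells of a type and less RNA per cell cannot be told apart. Cyp4a32 was lower in LiKM in every library, 14.3 to 16.5 CPM against 19.6 to 23.8 CPM, by 0.52 on the log2 scale (1.44-fold lower, SE 0.20), with an edgeR adjusted p of 0.0869. Cyp4a31 was higher in LiKM in every library, 6.06 to 8.88 CPM against 3.96 to 5.78 CPM, by 0.68 (1.6-fold, SE 0.28, edgeR adjusted p = 0.107).

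These near copies thus differed in opposite directions without passing the threshold, and their sum with Cyp4a10 differed by 0.17 (SE 0.39, 95% interval -0.68 to 1.02, edgeR adjusted p = 0.794). In single-library omissions, leaving out LiK ACR mouse 3 brought both Cyp4a31 (adjusted p = 0.0378) and Cyp4a32 (adjusted p = 0.0469) past edgeR's threshold, and leaving out LiK ACR mouse 2 brought Cyp4a32 past it (adjusted p = 0.0409). With library size alone as the scaling, which moves the median of all genes in this comparison by 0.40, Cyp4a31 was 1.07 higher (edgeR adjusted p = 0.0147). With only the groups compared in the fit, Cyp4a32 was called (log2 -0.48, edgeR adjusted p = 0.0397). Over all alternatives the adjusted p ran from 0.0147 to 0.269 for Cyp4a31 and from 0.0397 to 0.65 for Cyp4a32. The hepatocyte and bile duct marker sums given above also moved with the strains, and their part in these differences was not tested.

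For the remaining members the 95% intervals included 0. Cyp4a10 differed by 0.57 (95% interval -0.83 to 1.96, edgeR adjusted p = 0.559), and Cyp4a14 by 0.40 (-2.43 to 3.22, adjusted p = 0.858). Without LiKM normal diet mouse 1 both were lower in LiKM, by 0.46 and 0.42. Cyp4a12a differed by -0.60 (-1.65 to 0.46, edgeR adjusted p = 0.400), Cyp4a12b by -0.37 (-1.64 to 0.90, adjusted p = 0.686) and their sum by -0.51 (-1.62 to 0.60, adjusted p = 0.502). Without LiK normal diet mouse 2 the sum differed by 0.04. The median over the 6 members was 0.02, the same as over all genes tested.

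On ACR all 6 members had lower estimates in LiKM than in LiK, with a median of -0.81 beside 0.02 over all genes, and 0 of 6 passed edgeR's test, where 9.79% of all genes did. Cyp4a12a was 1.52 lower (2.87-fold, SE 0.48, edgeR adjusted p = 0.0716) and Cyp4a32 0.64 lower (1.56-fold, SE 0.20, edgeR adjusted p = 0.0603), both with an unadjusted p under 0.05. Their groups overlapped: for Cyp4a12a the highest LiKM mouse, at 168 CPM, was above the lowest LiK mouse, at 147 CPM. For Cyp4a32 the highest LiKM mouse reached 43.7 CPM and the lowest LiK mouse 40.8 CPM.

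DESeq2 called both genes on ACR (15.5% of all genes), with an adjusted p of 0.0081 for Cyp4a12a and 0.027 for Cyp4a32. With the mouse number as a block within LiKM, edgeR called Cyp4a32 (log2 -0.65, adjusted p = 0.045), beside 17.8% of all genes. Cyp4a12a passed edgeR's threshold without LiK ACR mouse 3 (log2 -1.86, adjusted p = 0.0474) or without LiKM ACR mouse 1 (log2 -2.04, adjusted p = 0.0414), and Cyp4a32 without LiK ACR mouse 2 (log2 -0.84, adjusted p = 0.0382). On the clock component the LiK mice on ACR scored 4.2 to 5.88 and the LiKM mice on ACR -9.14 to 0, so clock state differed between these groups. With the clock component as a covariate Cyp4a12a was 0.38 lower (edgeR adjusted p = 0.912), in a fit that called 0% of all genes. Because the scores of these groups do not overlap, that fit cannot tell clock state from strain. Without the 3 LiKM libraries with deviating clock genes Cyp4a12a was 0.85 lower. Over all alternatives the adjusted p ran from 0.0081 to 0.912 for Cyp4a12a and from 0.027 to 0.55 for Cyp4a32.

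For the other members on ACR the intervals included 0. Cyp4a10 differed by -0.57 (95% interval -1.92 to 0.79, edgeR adjusted p = 0.592), Cyp4a31 by -0.27 (-0.82 to 0.28, adjusted p = 0.531), Cyp4a14 by -1.30 (-3.48 to 0.89, adjusted p = 0.429) and Cyp4a12b by -0.99 (-2.26 to 0.29, adjusted p = 0.300). The lower sign of 3 of them rested on LiK ACR mouse 3: without it Cyp4a10 differed by 0.16, Cyp4a31 by 0.10 and Cyp4a14 by 0.86. The sum of Cyp4a10, Cyp4a31 and Cyp4a32 differed by -0.55 (-1.40 to 0.29, edgeR adjusted p = 0.384) and the sum of the Cyp4a12 pair by -1.33 (-2.46 to -0.20, adjusted p = 0.120). DESeq2 called the latter (log2 -1.34, adjusted p = 0.0327), and so did edgeR without LiKM ACR mouse 1 (log2 -1.94, adjusted p = 0.0495).

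Whether ACR acted differently on the family in the 2 strains was asked with the difference of the diet effects, LiKM minus LiK. This difference is built from the diet values that chose the genes and is not free of that choice. It was below 0 for 6 of 6 members with a median of -0.94, beside -0.02 over all genes, and 0 of 6 passed edgeR's test, as did 0.0072% of all genes (1 gene). DESeq2 called 0 of 6 members as well (1.15% of all genes), as did edgeR with the block within LiKM (1.87%). Cyp4a31, whose own rise on ACR helped to choose the family, alone had an unadjusted edgeR p under 0.05. Its diet effect was 0.95 smaller in LiKM (SE 0.38, 95% interval -1.78 to -0.12, edgeR adjusted p = 0.386). For Cyp4a32 the difference was -0.12 (-0.73 to 0.50, edgeR adjusted p = 0.900), for Cyp4a10 -1.13 (-3.08 to 0.81, adjusted p = 0.659) and for Cyp4a14 -1.69 (-5.26 to 1.87, adjusted p = 0.722).

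For the sum of the 3 copies the diet effects differed by -0.72 (-1.92 to 0.48, edgeR adjusted p = 0.648) and for the sum of the Cyp4a12 pair by -0.82 (-2.39 to 0.75, adjusted p = 0.696). Intervals of this width include both no difference and differences of more than 1 log2 unit. The sign was again held by single mice for some members, since without LiK ACR mouse 3 the difference was 0.46 for Cyp4a14 and 0.11 for Cyp4a32.

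**Figure D4:**
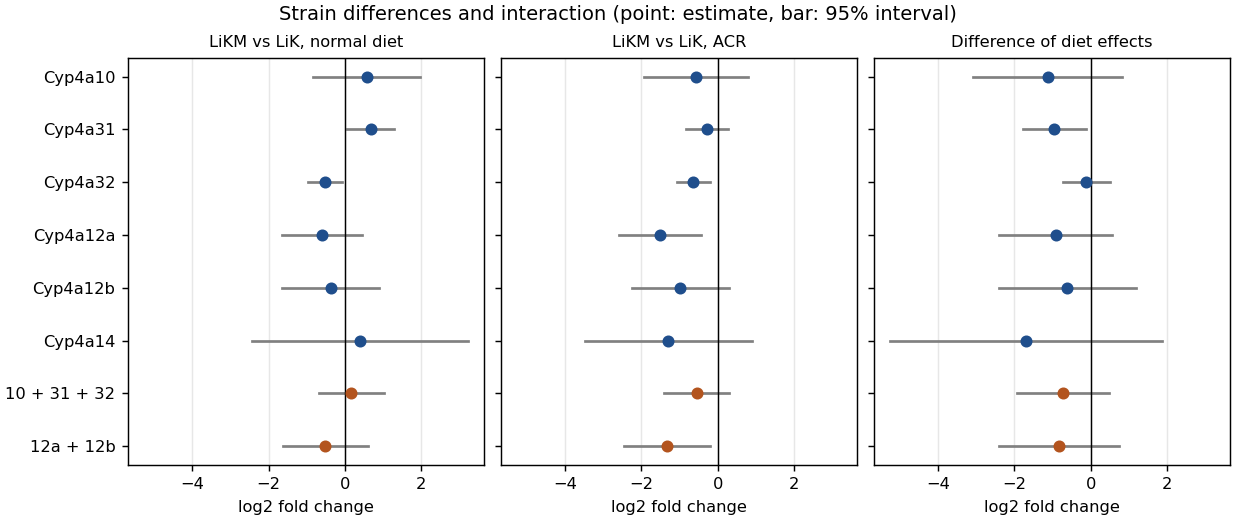
Log2 fold changes of the 6 members (blue) and of the 2 sums of copies (orange) between strains on each diet and for the difference of the diet effects, LiKM minus LiK; bars are 95% intervals. On ACR all points lie below 0, with Cyp4a12a lowest at -1.52, and 0 of 6 members passed edgeR's test in any panel.

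Ppara and Rxra, the genes of a receptor pair known to act on many Cyp4a genes, fell in LiKM. Among 17 nuclear receptors and cofactors known to act on Cyp4a genes, 4 fell and 1 rose in LiKM on the normal diet, where 8.61% of all genes fell and 13.2% rose, by edgeR. On ACR 4 fell and 1 rose, beside 4.24% and 5.55% of all genes. Ppara, which encodes PPAR alpha, had 395 to 488 CPM in LiK and 236 to 309 CPM in LiKM on the normal diet, a fall of 0.75 on the log2 scale (SE 0.14, edgeR adjusted p = 0.0042), and was 0.99 lower on ACR (SE 0.14, adjusted p = 0.0034). Rxra, the main RXR of liver, was lower by 0.47 (edgeR adjusted p = 0.0169) and 0.70 (adjusted p = 0.00744). The hepatocyte markers had a median of -0.61 on the normal diet and -0.16 on ACR, and their part in these falls was not tested. Rarg, a retinoic acid receptor, rose by 1.07 on the normal diet (edgeR adjusted p = 0.00838), and Ppargc1b, a coactivator, fell by 1.26 on ACR (adjusted p = 0.00606). Between diets edgeR called 0 of 17 in either strain, beside 0.195% of all genes in LiK and 0% in LiKM, with 3 at an unadjusted p under 0.05 in each. DESeq2 called 1 in LiK (2.95% of all genes) and 0 in LiKM (0.585%). The edgeR fit with the block within LiKM called 3 in LiK (5.05% of all genes).

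On the normal diet the number of receptors and cofactors that fell was 7 with the mouse number as a block within LiKM and 0 with library size alone. It was 1 or 2 when any LiK library, LiKM normal diet mouse 2 or LiKM ACR mouse 3 was left out. Rxra lost its call without LiK normal diet mouse 1 (edgeR adjusted p = 0.0504) or mouse 3 (adjusted p = 0.0618), and Ppara kept its call with each single library left out. With library size alone both lost their call on the normal diet, Ppara at -0.37 (edgeR adjusted p = 0.0525) and Rxra at -0.09 (adjusted p = 0.495). With the clock component as a covariate edgeR called 0% of all genes between strains on ACR, and thus none in this or the next lists.

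Peroxisomal beta oxidation, the route that takes up the dicarboxylic acids, was lower in LiKM on the normal diet as well. By edgeR 15 of its 20 genes fell and 0 rose there, with a median of -0.66, where 8.61% of all genes fell and 13.2% rose. On ACR 5 fell, with a median of -0.54, beside 4.24% of all genes. The hepatocyte markers had medians of -0.61 and -0.16 in the same comparisons (8 of 8 below 0 in both) and the bile duct markers 4.35 and 2.16, and their part in this result was not tested. Ehhadh, the peroxisomal bifunctional enzyme known for dicarboxylic acids, fell by 0.99 on the normal diet (SE 0.15, edgeR adjusted p = 0.00145), Abcd3, which imports acids into peroxisomes, by 1.00 (adjusted p = 0.00426), and Slc27a2, an acyl-CoA synthetase, by 0.76 (adjusted p = 0.00377). On ACR Eci2 fell by 0.97 (edgeR adjusted p = 0.00606), Decr2, a reductase for unsaturated acids, by 0.82 (adjusted p = 0.00446) and Pex19, a peroxisome assembly factor, by 0.62 (adjusted p = 0.0105).

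The count of 15 was 9 without LiK normal diet mouse 1, without LiK normal diet mouse 2 or without LiKM normal diet mouse 3, and 3 with library size alone. The count of 5 was 11 with the block within LiKM and 3 when LiK ACR mouse 1, 2 or 3 or LiKM ACR mouse 3 was left out. Between diets edgeR called 0 of the 20 genes in either strain, beside 0.195% of all genes in LiK and 0% in LiKM. The medians were -0.08 in LiK and 0.10 in LiKM, with 3 and 1 genes at an unadjusted p under 0.05. DESeq2 called 0 and 1, beside 2.95% and 0.585% of all genes. Ehhadh had 185 to 228 CPM and 161 to 187 CPM in LiK without and with ACR, and 76.8 to 116 CPM and 152 to 175 CPM in LiKM, where the LiKM groups did not overlap (log2 difference 0.66, edgeR adjusted p = 0.22).

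Of 28 other PPAR alpha targets, 11 fell and 2 rose in LiKM on the normal diet by edgeR, where 8.61% of all genes fell and 13.2% rose. On ACR 6 fell and 3 rose, beside 4.24% and 5.55% of all genes. Hadhb of the mitochondrial trifunctional protein fell by 0.58 on the normal diet (edgeR adjusted p = 0.00207), and Cpt1a, the gate of mitochondrial fatty acid import, fell by 1.24 on ACR (adjusted p = 0.00515), as did the carnitine transporter gene Slc22a5, by 0.90 (adjusted p = 0.00732). Ucp2, a mitochondrial carrier, rose by 0.97 on the normal diet (edgeR adjusted p = 0.0022) and by 0.98 on ACR (adjusted p = 0.00683), and Fabp4, a fatty acid binding protein of fat cells and macrophages, rose by 1.06 on the normal diet (adjusted p = 0.00246). Of the 8 leukocyte markers, 4 also rose in LiKM on the normal diet, where 13.2% of all genes did. Their summed levels were 61.4 to 156 CPM over LiK and 92.4 to 209 CPM over LiKM, and their part in the Fabp4 value was not tested. Between diets edgeR called 0 of the 28 in either strain, beside 0.195% of all genes in LiK and 0% in LiKM. The medians were 0.14 in LiK and 0.18 in LiKM, with 3 genes at an unadjusted p under 0.05 in each. DESeq2 called 1 and 0, beside 2.95% and 0.585% of all genes.

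The 11 falls became 7 without LiKM normal diet mouse 1 and 0 with library size alone, where 4 genes rose. The 6 falls on ACR became 16 with the block within LiKM, 10 without LiKM normal diet mouse 3 and 3 without LiK ACR mouse 2.

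Some of the genes listed as electron donors or dehydrogenases fell as well. Of 9 genes listed as electron donors or dehydrogenases of omega oxidation, 4 fell in LiKM on the normal diet by edgeR, where 8.61% of all genes did. Cyb5b, the outer mitochondrial cytochrome b5, fell by 0.59 (edgeR adjusted p = 0.0045), Cyb5r3, a cytochrome b5 reductase, by 0.46 (adjusted p = 0.0183) and Adh5, an alcohol dehydrogenase, by 0.52 (adjusted p = 0.0196). That count was 0 with library size alone and 1 or 2 when LiK normal diet mouse 1 or 3, or LiKM normal diet mouse 1 or 3, was left out. Each of these omissions ended the call of Adh5, and those of mouse 1 of either strain also that of Cyb5r3. On ACR 1 of 9 fell, beside 4.24% of all genes. This was Cyb5r3 (log2 -0.41, edgeR adjusted p = 0.0479), a call that 17 of 22 alternatives ended. Por, the electron donor of microsomal P450s, differed by -1.03 (SE 0.68, edgeR adjusted p = 0.303). Between diets edgeR called 0 of 9, beside 0.195% of all genes in LiK and 0% in LiKM (1 and 0 genes at an unadjusted p under 0.05). DESeq2 also called 0, beside 2.95% and 0.585% of all genes.

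The wider Cyp4 family had no shared direction. Of 8 tested Cyp4 genes outside the members, 1 rose and 2 fell in LiKM on the normal diet, where 13.2% of all genes rose and 8.61% fell. Cyp4f16 rose from 1.67 to 1.97 CPM in LiK to 5.25 to 6.06 CPM in LiKM (log2 1.63, SE 0.21, edgeR adjusted p = 0.000589). Cyp4v3, a hydroxylase linked in humans to a crystalline eye dystrophy, fell by 1.06 (SE 0.21, edgeR adjusted p = 0.00614), and Cyp4f15 fell by 0.58 (SE 0.19, adjusted p = 0.0497), a call that 14 of 22 alternatives ended. Cyp4f14, which inactivates leukotriene B4, differed by -0.41 (edgeR adjusted p = 0.102). On ACR 0 of 8 differed between strains by edgeR, where 9.79% of all genes did (3 of the 8 at an unadjusted p under 0.05), and 0 by DESeq2. Between diets edgeR called 0 of 8 in either strain (3 and 0 at an unadjusted p under 0.05), beside 0.195% of all genes in LiK and 0% in LiKM. In LiK 1 was called by DESeq2 (2.95% of all genes) and 1 with the block within LiKM (5.05%).

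**Figure D5:**
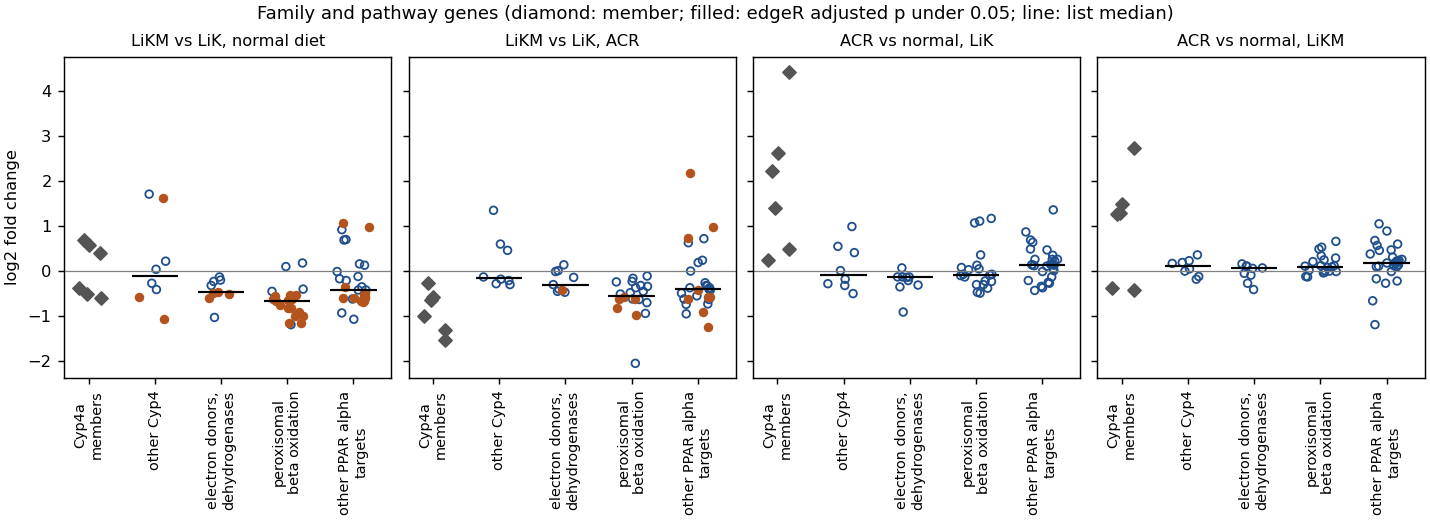
Log2 fold changes of the members (grey diamonds), of the other Cyp4 genes and of 3 pathway lists in the strain and diet comparisons; filled circles passed edgeR's adjusted p of 0.05 and lines are list medians. Of the peroxisomal genes 18 of 20 lie below 0 between strains on the normal diet, where 15 fell, and 20 of 20 on ACR. Between diets their medians are -0.08 and 0.10, and Cyp4a14 reaches 4.43 in LiK.

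Of genes known, as the Cyp4a12 pair, for higher expression in male liver, 5 of 15 fell and 0 rose in LiKM on the normal diet and 3 fell on ACR, by edgeR, beside 8.61% and 4.24% of all genes. On each diet 14 of the 15 lay below 0, with medians of -0.89 (normal diet) and -0.51 (ACR). Of 12 tested genes known for higher expression in female liver, 8 lay above 0 on each diet, with medians of 0.40 and 0.51. On the normal diet 2 of these 12 fell and 0 rose, Cyp2c69 (log2 -1.33, edgeR adjusted p = 0.0258) and Cyp2c40 (log2 -1.04, adjusted p = 0.03). On ACR 2 of the 12 rose, beside 5.55% of all genes, Cyp3a44 (log2 2.58, edgeR adjusted p = 0.0169) and Fmo2 (log2 1.7, adjusted p = 0.0417). The number that fell on the normal diet became 0 without LiK normal diet mouse 3 and 1 without LiK normal diet mouse 2 or LiKM normal diet mouse 2 or 3. The number that rose on ACR became 0 without LiK ACR mouse 1 or 2 and 1 without LiK normal diet mouse 3, LiK ACR mouse 3, LiKM normal diet mouse 1 or LiKM ACR mouse 1 or 2. Slco1a1, an organic anion carrier of male liver, fell by 0.96 (edgeR adjusted p = 0.00979) and 1.06 (adjusted p = 0.0131). Of the male-biased genes, the 5 that fell on the normal diet became 8 with the block within LiKM, 9 without LiKM ACR mouse 1, 3 without LiK normal diet mouse 2 or LiKM normal diet mouse 3, and 1 with library size alone. On ACR the 3 became 5 without LiKM ACR mouse 1 and 0 or 1 when any LiK mouse on ACR was left out, where the omission of mouse 2 ended the call of Slco1a1 (adjusted p = 0.0559). On the side of hormone signalling, 2 of 14 genes fell on the normal diet, where 8.61% of all genes did, among them Ghr, the growth hormone receptor, by 0.87 (edgeR adjusted p = 0.0155). This count was 6 with the block within LiKM, 4 without LiKM ACR mouse 3, 1 without LiK normal diet mouse 2 and 1 without LiKM normal diet mouse 1 (Ghr adjusted p = 0.0533). The retinoid clearance gene Cyp26a1 was 3.08 lower on ACR in LiK (SE 0.39, edgeR adjusted p = 0.017), while in LiKM its log2 difference was -2.5 (SE 0.35, adjusted p = 0.0609). Its levels were low, 2.68 to 2.94 CPM without and 0.216 to 0.466 CPM with ACR in LiK, and 3.06 to 5.49 and 0.427 to 0.933 CPM in LiKM. Cyp26a1 was the only one of 8 retinoid response genes that edgeR called between diets, beside 0.195% of all genes in LiK and 0% in LiKM. Its call in LiK ended without LiK normal diet mouse 2 or 3 or LiK ACR mouse 1 or 3, and with the clock component, while the log2 difference was -3.52 to -2.87 over all alternatives. DESeq2 and the block within LiKM called 1 such gene in LiKM.

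Genes with the most similar pattern over the 12 libraries were sought among 9739 genes with a mean of at least 5 CPM outside the family, by Pearson's r of log2 CPM. The libraries share their strain, diet and clock state, so r is a description. For the sum of Cyp4a10, Cyp4a31 and Cyp4a32 the nearest were Rdh9 (r = 0.83), Entpd6 (0.78), Timd4 (0.78), Cd47 (0.77) and Hnrnpul1 (0.76). For the sum of the Cyp4a12 pair they were Pex26 (0.93), Tlr5 (0.92), Nceh1 (0.88) and Inhbe (0.85). Cyp4a14 had Slc15a3 (0.75), Stx5a (0.75), Utp14a (0.73), Timd4 (0.73) and Eif2ak3 (0.72), and Timd4 was the gene that 2 of the 3 sets of neighbours held.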

How the data were processed

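RNA sequencing was done on 12 liver samples, 3 male mice in each of 4 groups, with a stranded mRNA kit, per the labels' protocols. The deposited table holds expected counts per gene, made by the authors with featureCounts 2.0.0 on the build mm10, per the submitters' processing notes; 18.9% of values above 0 are not whole (tolerance 1e-09; 0.001 for single members). Not given in the sources used here are the aligner, annotation, strand setting and options for shared reads. All 12 columns matched a title.

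Counts were rounded, filtered with edgeR's filterByExpr by group (13880 genes kept) and scaled with TMM factors (0.83 to 1.24). A prior count of 2 was added for log2 CPM. The main test was edgeR 4.0.16's quasi-likelihood test on all 12 libraries with 1 coefficient per group, adjusted by Benjamini-Hochberg over all genes of a comparison. "Rose" and "fell" refer to an adjusted p under 0.05. Counts at an unadjusted p under 0.05 are given without the share of all genes at that level, so nothing is read from them. The members, lists, tests and the rule for names were chosen with earlier results of these data known. All members are named; of each list, up to 3 genes of smallest p past the threshold, plus Ppara, Rxra, Ehhadh, Por, Cyp4f14, Cyp4f15, Cyp26a1 and Dbp. The 5 genes most like each set are named too; other genes were named after their values were seen. Some genes these rules select are not reported here. Alternatives included DESeq2 1.42.0. The mice are separate animals, per their titles.

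Same-numbered LiKM mice on the 2 diets deviated together across genes (correlations 0.37, 0.22 and 0.48, highest other 0.07), although no label says what the number shares. The main fit held no block and so ignored this pairing. The number within LiKM entered as a block in an alternative fit only, whose calls are given beside the main ones. Other groups showed no such pairing. Sequences, positions and lengths come from GENCODE M21 (GRCm38, the same assembly as mm10).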

Additional observations from a re-analysis of the deposited data

How the results depend on the processing

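Each value was recomputed under up to 23 alternatives: DESeq2, near copies summed, library size alone, no filter, unrounded counts, the replicate block over all groups and within LiKM, a clock component or the sample identifier's opening letters (KM or MP) as a covariate, only the groups compared, each library left out, and, added after seeing the data, 3 LiKM libraries with deviating clock genes left out. Members past the threshold on the normal diet (0) became 1 with library size alone and 1 with only the groups compared, and 0 to 2 with single libraries left out. On ACR (0) they became 2 with DESeq2, 1 with the replicate block within LiKM and 0 to 1 with single libraries left out. For the difference of the diet effects they were 0 throughout. The replicate block over all groups gave 0 members in all tested comparisons and changed no other call of a member.

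Signs that turned belonged to values that were not called before or after. With the clock component these were Cyp4a12b on ACR (0.45) and the differences of the diet effects of Cyp4a12a (0.01), Cyp4a12b (0.54) and the Cyp4a12 sum (0.20); without the 3 LiKM libraries, Cyp4a12b's (0.19). With single libraries left out, strain differences on the normal diet ran from -0.46 to 0.90 for Cyp4a10, -0.42 to 1.77 for Cyp4a14, -0.62 to 0.21 for Cyp4a12b, -0.33 to 0.37 for the sum of 3 copies and -0.76 to 0.04 for the Cyp4a12 sum. On ACR they ran from -0.87 to 0.16 for Cyp4a10, -1.82 to 0.86 for Cyp4a14 and -0.48 to 0.10 for Cyp4a31. Differences of the diet effects ran from -3.07 to 0.46 for Cyp4a14 and -0.32 to 0.11 for Cyp4a32. The causes were not tested. Of the values for single genes, sums and lists, 1997 stayed on their side, 129 lost a call, 13 gained 1 and 174 moved beyond the spread or, for counts, by over 1.5 times. Library size alone moved the median of all genes by 0.40 and 0.14 between strains (normal diet, ACR), -0.29 in the difference of the diet effects, and 0.13 and -0.16 between diets (LiK, LiKM). Cyp4a14, with 11 to 84 counts in the LiK normal diet group, is limited by depth there, and 3 mice a group limit the precision of every value.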
